A study of Mus musculus with 11 samples.

Results

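Mouse embryonic stem cells without the transcription factor c-Myc were compared with stem cells that carry floxed, intact cMyc alleles, across every annotated gene with enough reads. Members were the annotated coding and noncoding rows of the deposited table with at least 50 recovered reads over both libraries. That rule kept 13331 of 22058 annotated rows, and of 39889 rows in all, which also hold repeats, pseudogenes, ribosomal RNA and unannotated loci. Among the members were 12529 mRNAs, 764 long noncoding RNAs (lncRNAs) and 38 rows of small RNA genes, mostly microRNA hairpins and small nucleolar RNAs. Of the rows at the edge of the rule, the 40 with 49 reads had a median log2 ratio of 0.20 and the 31 with 50 reads one of 0.13.

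Both cultures are labelled as feeder-free embryonic stem cells of the 129S4/SvJae strain kept on gelatin. The control is flox/flox cMyc and the other group is cMyc KO, and neither label names a treatment, a Cre driver or a time after deletion. Each genotype has 1 single-end, directional, poly(A)-selected RNA library, so no difference between the genotypes has a replicate check and no p-value is given for it. All intervals cover counting error only, and a difference between these 2 cultures that has nothing to do with cMyc cannot be told apart from one that does. The libraries held 24660365 recovered reads (cMyc flox/flox) and 31633011 (cMyc KO), of which 28.1% and 29.96% fell on ribosomal RNA rows.

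Myc is a basic helix-loop-helix leucine zipper protein that pairs with Max and binds E-box DNA, whose canonical form is CACGTG. In many cell types it is known for raising genes of ribosome production, nucleotide synthesis, glycolysis and cell division. Embryonic stem cells also make its relative Mycn, and Mxd, Mnt and Mga proteins compete for Max and mostly repress. Ratios below are log2 of the value in cMyc KO over the value in cMyc flox/flox, each value being a read count divided by 1 size factor per library. With a single library per genotype, a row was called when it changed at least 2-fold.

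The canonical E-box was searched in RefSeq promoter windows of the GRCm38.p6 build, from 250 bases before to 50 after the annotated start. The letters CACGTG read the same on both strands. Windows were given for 77.3% of member mRNAs, but for 58.7% of those called lower, so a comparison of promoter content between the sets is void and the counts here are only described. The motif stood in 4 of 27 windows of lowered mRNAs, 3 of 74 of raised mRNAs, 1015 of 9683 (10.5%) of all member mRNAs and 7.24% of all 27025 windows. The median ratio was 0.11 both for the 1015 member mRNAs with the motif and for the 8668 without it. Printed below, with CACGTG in capitals, are the windows of the 2 lowered and 2 raised mRNAs that hold the motif and whose interval lay farthest from no change. Slc25a36 (a mitochondrial nucleotide carrier; chr9:97110992-97111291, minus strand) and Uty (a Y-linked demethylase relative; chrY:1245710-1246009, minus strand) were lower. Piwil1 (a germline Argonaute protein that binds piRNAs; chr5:128735996-128736295, plus strand) and Fkbp6 (a germline cochaperone of the piRNA pathway; chr5:135349995-135350294, minus strand) were higher.
Slc25a36: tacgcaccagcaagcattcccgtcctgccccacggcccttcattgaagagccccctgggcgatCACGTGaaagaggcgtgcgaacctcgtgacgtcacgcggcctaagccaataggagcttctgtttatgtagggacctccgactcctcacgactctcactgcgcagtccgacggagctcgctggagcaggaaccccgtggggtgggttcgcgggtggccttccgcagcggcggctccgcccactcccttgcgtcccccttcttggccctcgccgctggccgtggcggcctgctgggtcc
Uty: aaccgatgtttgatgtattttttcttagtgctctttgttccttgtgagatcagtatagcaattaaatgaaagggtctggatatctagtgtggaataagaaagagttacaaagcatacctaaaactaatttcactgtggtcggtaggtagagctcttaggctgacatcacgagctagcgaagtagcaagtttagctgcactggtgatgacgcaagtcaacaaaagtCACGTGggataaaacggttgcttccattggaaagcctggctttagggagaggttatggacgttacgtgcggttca
Piwil1: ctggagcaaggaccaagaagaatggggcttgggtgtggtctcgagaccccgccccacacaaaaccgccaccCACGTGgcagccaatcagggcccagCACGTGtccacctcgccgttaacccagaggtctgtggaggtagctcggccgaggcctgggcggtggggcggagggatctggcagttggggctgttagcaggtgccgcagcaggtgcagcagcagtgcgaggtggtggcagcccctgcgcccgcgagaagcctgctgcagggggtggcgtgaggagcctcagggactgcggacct
Fkbp6: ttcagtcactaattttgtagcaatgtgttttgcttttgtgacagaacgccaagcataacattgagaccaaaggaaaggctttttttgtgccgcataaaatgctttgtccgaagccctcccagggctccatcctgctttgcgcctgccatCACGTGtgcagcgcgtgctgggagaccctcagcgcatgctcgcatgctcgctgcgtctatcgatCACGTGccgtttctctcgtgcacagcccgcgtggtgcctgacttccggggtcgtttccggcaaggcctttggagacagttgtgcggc

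The windows of Slc25a36 and Uty hold 1 E-box each, beginning at -187 and -25 from the annotated start. Those of both raised genes hold 2, the first beginning at -179 in Piwil1 and at -101 in Fkbp6. Slc25a36 went from 1989 to 1140 reads (log2 ratio -1.02, 95% counting interval -1.13 to -0.92) and Uty from 233 to 120 (-1.18, -1.51 to -0.85). Piwil1 had 10 reads in the floxed and 43 in the null library (1.89, 0.87 to 3.04), and Fkbp6 had 60 and 169 (1.28, 0.84 to 1.73). The other motif-bearing windows belonged to Hebp1 and Dgkg among the lowered genes and to Foxd3 among the raised.

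The targeted gene matched its label. Myc had 446 reads in the cMyc flox/flox library and 12 in the cMyc KO library, deposited values of 470.04 and 10.87, a 43.2-fold difference (log2 ratio -5.43, -6.40 to -4.61). Where in the gene the remaining 12 reads lie cannot be read from a table of whole-gene counts. Its relative Mycn, which binds the same E-box with Max, was higher at 5130 reads against 3010 (0.55, 0.49 to 0.62). Mycl, of the same family, had 625 reads against 442 (0.28, 0.10 to 0.46). Max, the shared partner, had 1133 against 1020 (-0.07, -0.19 to 0.06). That interval includes 0 in the deposited scaling but lies below 0.11, the median over all mRNAs.

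The proteins that compete for Max did not move one way. Mga, which pairs with Max in a Polycomb-type complex known to hold down germline genes in stem cells, was lower, at 3744 reads against 4975 (-0.63, -0.69 to -0.57). Mnt, a repressor partner of Max, was higher at 1500 against 957 (0.43, 0.31 to 0.55). Mxd1, another repressor, rested on 107 against 57 reads (0.69, 0.21 to 1.18), and Mxi1 had 586 against 623 (-0.31, -0.47 to -0.14). Mlx, the Max-like partner of the glucose-sensing Mondo factors, had 1353 against 864 (0.43, 0.30 to 0.55), and Zbtb17 (Miz1), through which Myc represses, 1018 against 644 (0.44, 0.30 to 0.59). Besides Myc, no other of the 14 network genes passed 2-fold, where 0.367% of all mRNAs were that much lower and 0.806% higher.

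Most mRNAs differed little. The median log2 ratio of the 12529 mRNAs was 0.11, and 90.9% of them lay within 1.5-fold. At least 2-fold lower were 46 mRNAs (0.367%), and at least 2-fold higher were 101 (0.806%). For 7 of the lowered and 8 of the raised the whole counting interval lay past 2-fold. Another scaling of the libraries shifts every ratio together: dividing by all reads outside ribosomal RNA moves them by -0.10, which brings the mRNA median to 0.00 and the counts to 100 lower and 62 higher. The balance of lower and higher mRNAs at 2-fold therefore turns with the scaling, and a ratio is best read against the mRNA median of 0.11.

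Ranked by how far the counting interval stayed from no change, the lowered mRNAs after Myc began with Rb1, the retinoblastoma protein that holds back entry into S phase. It had 1236 reads in the floxed and 621 in the null library (-1.21, -1.35 to -1.07). Csf1r, the macrophage colony-stimulating factor receptor, and Esp6, of the exocrine-gland secreted peptide family, happened to have the same counts, 80 and 29 (-1.68, -2.35 to -1.05). Micu3, a regulator of mitochondrial calcium uptake, had 127 against 52 (-1.51, -2.00 to -1.03). Dynlt3, a dynein light chain, had 101 against 40 (-1.55, -2.12 to -1.01). The intervals of all of these stayed past 2-fold.

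Further mRNAs of that rank have roles in dividing cells, translation or chromatin. Kif20b, a kinesin of late mitosis and cytokinesis, had 1622 and 862 reads (-1.13, -1.25 to -1.01). Nemf, a ribosome quality control factor, had 904 and 479 (-1.13, -1.30 to -0.97). The deepest of the group by reads was Atrx, a chromatin remodeller of heterochromatin and telomeres, with 5503 and 3146 (-1.02, -1.09 to -0.96). Rb1 and Atrx were also among the longest genes of the group, a property taken up below.

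The raised mRNAs were led by genes with few reads. In such bulk libraries, more cells that make an RNA and more of it per cell cannot be told apart. Alox15, a lipoxygenase, went from 16 to 81 reads (2.12, 1.34 to 3.00). T (brachyury), the mesoderm factor, went from 7 to 45 (2.47, 1.31 to 3.86). Sp8, a zinc finger factor of limb and brain development, went from 9 to 45 (2.10, 1.05 to 3.32), and Ctrb1, a pancreatic protease precursor, from 14 to 58 (1.83, 0.97 to 2.79). Sprr2a1, a cornified envelope protein with near-identical family copies that could share its reads, went from 55 to 204 (1.67, 1.24 to 2.13).

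Better counted among the raised were Mid1, Pim2, Gfra1, Tuba3a and Chac1. Pim2 encodes a kinase that promotes growth and survival, and had 1509 reads in the floxed and 3854 in the null library (1.13, 1.05 to 1.22). Mid1, an X-linked ubiquitin ligase on microtubules, had 357 and 977 (1.23, 1.06 to 1.41). Gfra1, the co-receptor for the neurotrophic factor GDNF, had 235 and 654 (1.26, 1.04 to 1.48). Chac1 degrades glutathione and is a target of the integrated stress response; it had 72 and 224 (1.42, 1.03 to 1.82). Tuba3a is a testis alpha-tubulin whose copy Tuba3b can share its reads, and it had 531 and 1342 (1.12, 0.97 to 1.27).

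**Figure D1:**
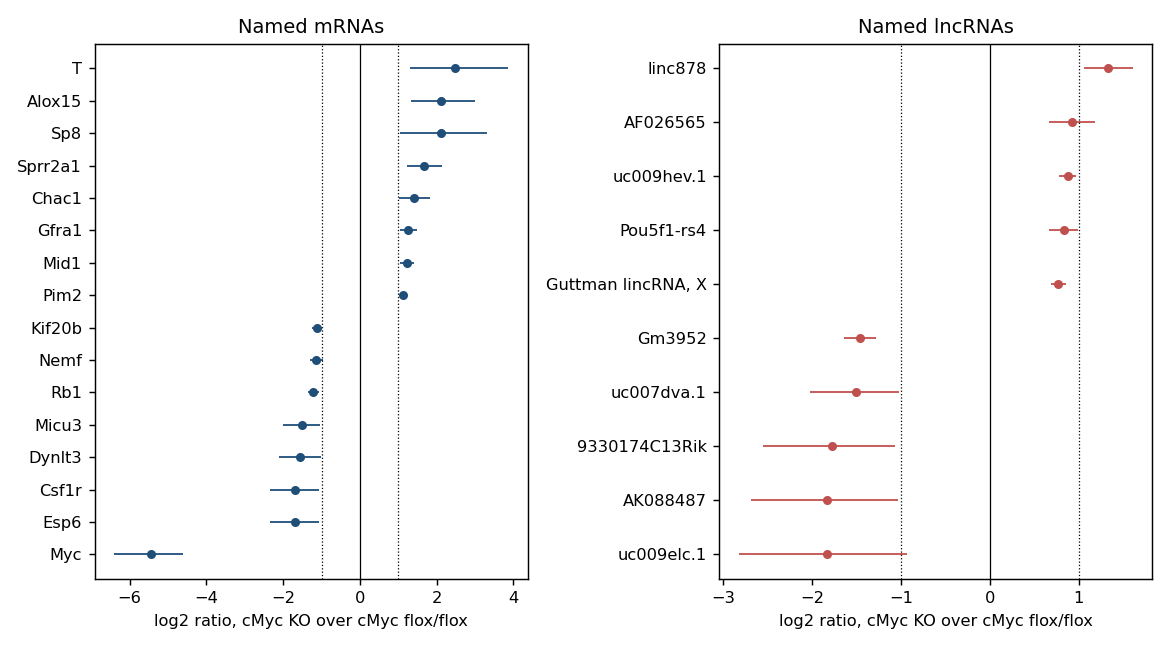
Log2 ratio (cMyc KO over cMyc flox/flox) of the 8 lower and 8 higher mRNAs (left) and the 5 lower and 5 higher lncRNAs (right) whose counting interval lay farthest from no change. Points are ratios, bars 95% counting intervals and dotted lines 2-fold; Myc at -5.43 stands far from every other row, and rows with few reads have the widest bars.

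Genes of the growth program that Myc is known for stayed close to the mRNA median. List medians between 0 and that median turn negative when ratios are centred on it, so those of nucleotide, cytosolic ribosomal protein and mitosis genes have no fixed sign. Of 55 measured ribosome biogenesis genes none passed 2-fold, against 0.367% and 0.806% of all mRNAs, and their median was 0.14. Within that list Bysl, needed for small subunit assembly, was higher (0.48, 0.39 to 0.58). Ncl (nucleolin) was lower at 23138 reads against 27740 (-0.48, -0.50 to -0.45), and Mphosph10, of the small subunit processome, was lower at 668 against 1052 (-0.87, -1.02 to -0.73). The nucleotide and polyamine list (33 genes, median 0.08) held no gene past 1.5-fold. Of all mRNAs 4.08% were that much lower and 5.01% higher, and of mRNAs with at least 2000 reads 2.23% and 1.23%. Srm, the spermidine synthase, was at 0.31 (0.26 to 0.37), and Pfas, a purine synthesis enzyme, at 0.35 (0.30 to 0.39).

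Glycolysis genes had a median of 0.21 over 22 genes. Gapdh was the farthest, with 14513 reads in the null and 8101 in the floxed library (0.62, 0.58 to 0.66), followed by the glucose transporter Slc2a1 (0.47, 0.44 to 0.49). The 30 proteasome subunits had a median of 0.26, and the 76 respiratory chain genes 0.18, where Atp5g1, a subunit of the ATP synthase ring, had the largest ratio (0.73, 0.64 to 0.81). Cytosolic ribosomal proteins sat lower, with a median of 0.04 over 80 genes, and mitochondrial ribosomal proteins at 0.14 over 75. None of these 5 lists held a gene past 2-fold, where 0.367% of all mRNAs were that much lower and 0.806% higher. With shares so small, the absence of such genes says little about these lists. Counts of cytosolic ribosomal proteins and of Gapdh are uncertain because their many pseudogenes can share reads.

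Cell cycle lists were split by gene. In the mitosis list of 20 genes (median 0.03), 3 were at least 1.5-fold lower and none was as much higher, where 4.08% and 5.01% of all mRNAs were. They were Cenpe, a kinetochore motor (-1.05, -1.16 to -0.95), Cenpf (-0.96, -1.04 to -0.88) and Mki67, the proliferation antigen that coats mitotic chromosomes (-0.79, -0.84 to -0.73). The G1, S phase and replication list (28 genes, median 0.17) contained Rb1 as its 1 gene past 2-fold. Of all mRNAs 0.367% were 2-fold lower and 0.806% higher. Ccnd1 (cyclin D1) had 3825 reads against 2193 (0.58, 0.51 to 0.66). Genes induced by p53 had a median of -0.11 over 21 genes. Of those, 3 were at least 1.5-fold lower and none was as much higher, against 4.08% and 5.01% of all mRNAs. Among the 3 was Pmaip1 (Noxa), a pro-apoptotic protein (-0.86, -1.02 to -0.70).

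Stem cell identity genes kept high levels in both libraries. Pou5f1, the Oct4 gene, had 8640 reads in the floxed and 13128 in the null library (0.39, 0.35 to 0.42). Nanog had 4464 and 6108 (0.23, 0.18 to 0.29), Sox2 4589 and 6006 (0.17, 0.11 to 0.23), Esrrb 6492 and 8890 (0.24, 0.19 to 0.28) and Zfp42 (Rex1) 4399 and 4902 (-0.06, -0.12 to 0.00). The core pluripotency list had a median of 0.37 over 15 genes and the naive list 0.17 over 20. Foxd3 was the core gene past 2-fold, at 178 reads against 72 (1.09, 0.69 to 1.504), and Rif1, a replication timing factor counted with the core list, was the lowest (-0.83, -0.89 to -0.77).

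The formative and primed list, genes that rise as stem cells leave the naive state, had the highest median of the lists with at least 8 members, 0.54 over 13 genes. Of these, 6 were at least 1.5-fold higher and none was as much lower, against 5.01% and 4.08% of all mRNAs. Fgf5, a marker of the post-implantation epiblast, went from 25 to 71 reads (1.29, 0.61 to 2.01) and Sox3 from 35 to 92 (1.18, 0.60 to 1.78). Zic2, a factor that binds enhancers in epiblast cells, went from 546 to 1242 (0.97, 0.82 to 1.12). Otx2, another factor of that state, had 306 and 367 reads (0.04, -0.18 to 0.27), and Etv5 6134 and 7022 (-0.02, -0.07 to 0.03), so the list did not move as a block.

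Signalling targets included several of the same genes. At least 1.5-fold higher were 5.01% of all mRNAs. Wnt targets had a median of 0.37 over 10 genes, 4 of them that much higher: T, Sp5 (0.99, 0.26 to 1.76), Lef1 (0.98, 0.61 to 1.36) and Notum (0.97, 0.61 to 1.35). In the immediate early and Erk list (16 genes, median 0.33) the feedback phosphatase Dusp6 had 2290 reads against 1115 (0.82, 0.72 to 0.92) and the early response factor Egr1 834 against 407 (0.82, 0.64 to 0.99). TGF-beta, BMP and Id genes had a median of 0.29 over 16 genes and ran from -0.45 to 0.98. Of these, 3 had a ratio below 0, and 2 had an interval below 0. Id1, Id2 and Id3, the inhibitors of helix-loop-helix factors, were at 0.51, 0.60 and 0.51. The integrated stress response and amino acid list had a median of 0.35 over 21 genes, with 4 at least 1.5-fold higher, Trib3 (0.71, 0.52 to 0.90) and Atf5 (0.68, 0.39 to 0.97) among them. Dusp6, Lef1 and T each stand in 2 of the lists.

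Markers of other cell types were measured in the same libraries. Of 19 fibroblast and feeder markers 13 were members, with a median of 0.31. The summed value of all 19 was 35329.6 in the floxed and 41649.4 in the null library. Of the 13, 5 were at least 1.5-fold higher and none as much lower, against 5.01% and 4.08% of all mRNAs. Col1a1, a fibrillar collagen, had 2553 reads against 1158 (0.92, 0.82 to 1.02) and Vim (vimentin) 5429 against 2629 (0.83, 0.76 to 0.90). Neural ectoderm markers had 7 members of 14 (summed value 3967.9 and 5595.5), with Neurog1 at 260 reads against 109 (1.04, 0.71 to 1.37). Mesoderm markers summed to 873.7 and 1094.7, primitive endoderm markers to 30534.4 and 33826.6 and trophoblast markers to 23086.5 and 21888.1. Blood cell markers had no member, and their summed value over 9 genes was 65.34 and 67.97. The part of such cells in the changes above was not tested.

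**Figure D2:**
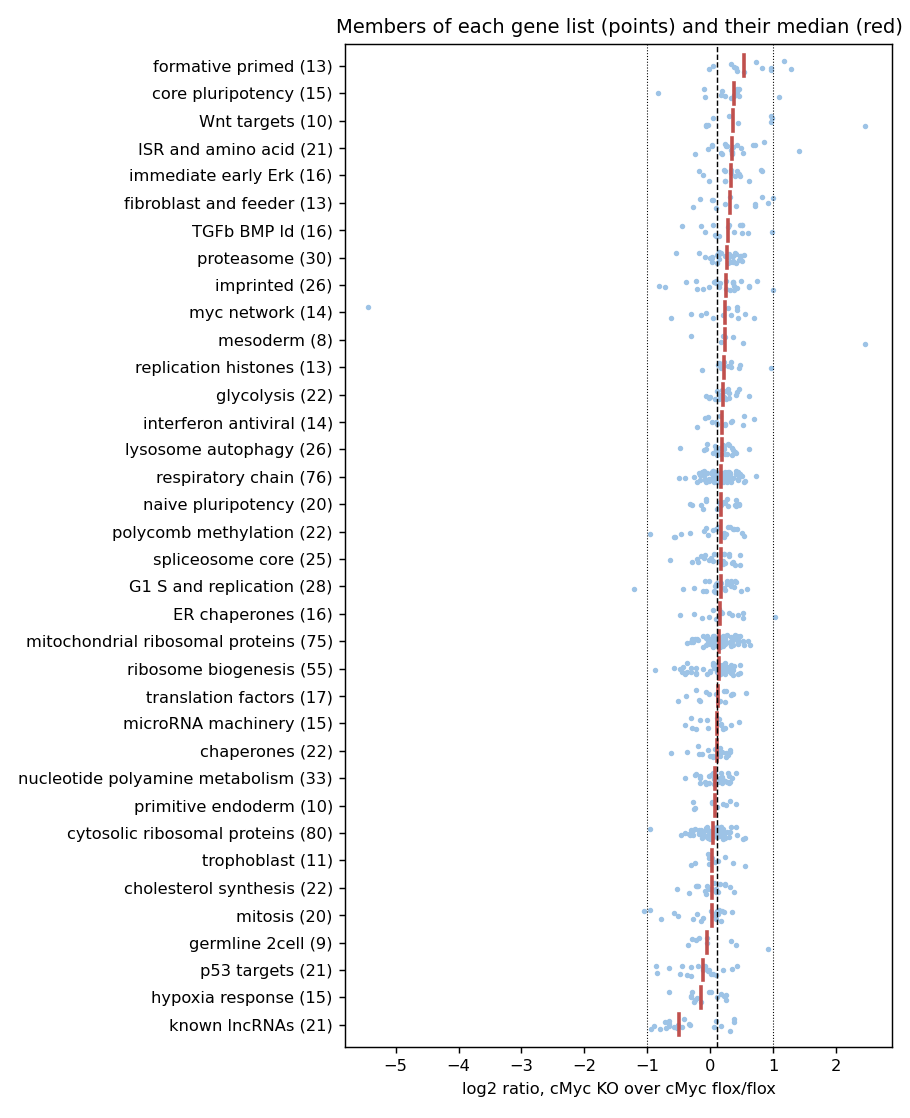
Log2 ratio (cMyc KO over cMyc flox/flox) of each member of the lists with at least 8 members; points are genes, red bars list medians, the dashed line the mRNA median and dotted lines 2-fold. Most medians lie near the dashed line, the formative and primed list stands highest at 0.54, the known lncRNAs lowest at -0.50, and Myc is the isolated point at the left.

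Germline genes and genes of the 2-cell-like state were listed together (9 members of 16, median -0.06), and the list moved little as a group. Of the 9, 6 had a ratio below 0, though none had an interval below 0. The intervals of 2 lay above 0. Mael, a piRNA pathway protein, had 137 reads against 62 (0.93, 0.48 to 1.38) and Stra8, the meiotic inducer, 158 against 102 (0.41, 0.05 to 0.79). Piwil1 and Fkbp6, described with their promoters, act in the same pathway as Mael but were not on the list. Among imprinted genes (26, median 0.25), Nnat had 855 against 366 (1.01, 0.83 to 1.19) and Kcnq1ot1, a long antisense RNA that silences its cluster, 531 against 753 (-0.72, -0.88 to -0.56). Polycomb and DNA methylation genes (22, median 0.17) ran from Bmi1 at -0.95 (-1.54 to -0.38) to Dnmt3a, a de novo methyltransferase, at 0.54 (0.47 to 0.60).

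As a class, the lncRNAs lay lower than the mRNAs. Their median ratio was -0.23, which lies 0.34 below the mRNA median, a distance that does not depend on how the libraries are scaled. At least 2-fold lower were 38 lncRNAs (4.97%) and at least 2-fold higher 3 (0.393%). At 1.5-fold the shares were 22.1% lower and 4.71% higher, and for mRNAs 4.08% and 5.01%. Of reads outside ribosomal RNA, all lncRNA rows together held 4.19% in the floxed and 4.36% in the null library. The lower median thus describes rows, not the total of lncRNA reads. Rows annotated as neither class were also low: 452 unannotated loci had a median of -0.35 and 91 repeat families -0.45, while 1097 pseudogenes were at 0.01. The share of reads outside ribosomal RNA that fell on unannotated loci went from 0.476% to 0.364%, and that on repeats from 0.401% to 0.212%. The bearing of these on the lncRNA result was not tested.

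**Figure D3:**
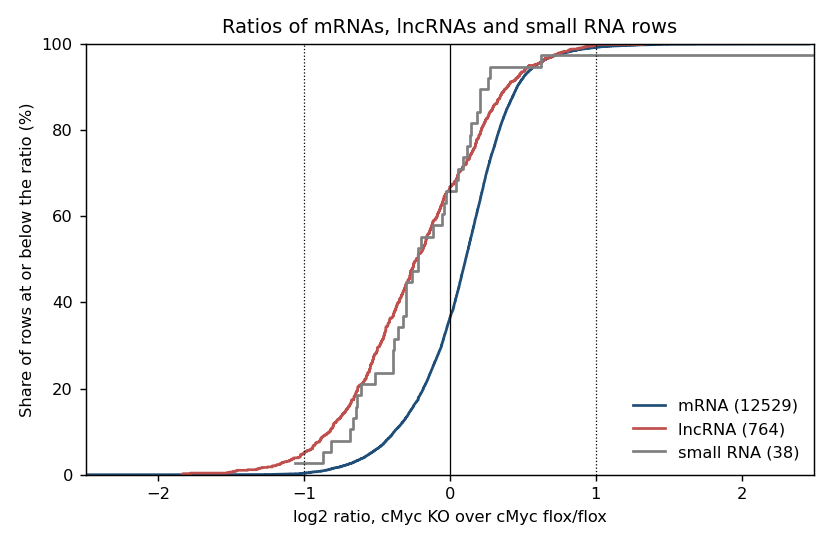
Cumulative share (%) of rows at or below each log2 ratio (cMyc KO over cMyc flox/flox) for 12529 mRNAs, 764 lncRNAs and 38 small RNA rows, with dotted lines at 2-fold; the axis ends at -2.5 and 2.5, leaving out Myc and Mir9-1. The lncRNA curve lies left of the mRNA curve over most of its course, with medians of -0.23 and 0.11.

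The lower lncRNA values held among rows of like depth except the deepest. With 50 to under 100 reads the lncRNA median was -0.27 (266 rows) and the mRNA median 0.08 (883). At 200 to under 500 reads they were -0.27 (150) and 0.07 (2001), and at 500 to under 2000 reads -0.16 (104) and 0.09 (4510). From 2000 reads on, 75 lncRNAs had a median of 0.17 against 0.13 for 3985 mRNAs. By annotation source the noncoding median ran from -0.41 for 80 GenBank transcripts and -0.33 for 102 MGI transcripts to -0.11 for 251 RefSeq rows, small RNA rows included. Coding rows from the sparser sources were low too, at -0.20 for 82 UCSC and -0.21 for 32 VEGA models, against 0.11 for 12185 RefSeq coding rows.

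The 5 lncRNAs whose decrease stayed farthest from no change were mostly transcripts without a common name. Gm3952 went from 838 to 354 reads (-1.46, -1.64 to -1.28) and 9330174C13Rik from 65 to 22 (-1.78, -2.55 to -1.06). The GenBank transcript AK088487 went from 55 to 18 (-1.83, -2.69 to -1.04). The UCSC models uc007dva.1 and uc009elc.1 went from 120 to 49 (-1.51, -2.02 to -1.02) and from 43 to 14 (-1.84, -2.82 to -0.94). Gm3952 thus rested on far more reads than the other lowered lncRNAs named here.

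Among higher lncRNAs linc878, a lincRNA of the Bartel catalogue, went from 149 to 435 reads (1.33, 1.06 to 1.61). uc009hev.1 went from 1346 to 2868 (0.87, 0.78 to 0.97), and AF026565 from 182 to 401 (0.92, 0.67 to 1.18). A lincRNA of the Guttman catalogue at chrX:166438823-166444781 in the mm9 build of the deposited identifier went from 1750 to 3467 (0.77, 0.69 to 0.85). Pou5f1-rs4, a copy related to Pou5f1 that can take its reads, went from 454 to 939 (0.83, 0.67 to 1.00). Past 2-fold stood linc878, a VEGA transcript and Dubr, the last 2 with intervals that reach well inside 2-fold.

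Well-known lncRNAs had a median of -0.50 over 21 genes, 8 of them at least 1.5-fold lower and none as much higher, against 22.1% and 4.71% of all lncRNA members. Malat1, a nuclear speckle RNA, had 12044 reads against 14673 (-0.50, -0.54 to -0.47), and Neat1, the scaffold of paraspeckles, 531 against 607 (-0.41, -0.58 to -0.24). Firre, an X-linked nuclear RNA, had 1186 against 1610 (-0.66, -0.77 to -0.55). Pvt1, whose gene lies next to Myc, had 107 against 160 (-0.80, -1.17 to -0.44), and Mir17hg, the host of the miR-17 to miR-92 cluster and a known Myc target, 342 against 437 (-0.57, -0.78 to -0.36). In the list 15 genes had a ratio below 0 and 6 above it. Of the 6, the imprinted RNAs Rian (0.32, 0.25 to 0.39) and Meg3 (0.09, 0.04 to 0.15) and the polymerase regulator Rn7sk (0.18, 0.15 to 0.21) had intervals above 0. Those of Mirg (0.38, -0.28 to 1.06), Miat (0.37, -0.06 to 0.81) and Rpph1 (0.06, -0.21 to 0.32) included 0. Of 4 snoRNA host genes Snhg8 was lowest, at 175 against 310 (-1.04, -1.32 to -0.77).

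Among the 38 small RNA rows, 1 was at least 2-fold lower (2.63%) and 1 at least 2-fold higher (2.63%), Mir674 and Mir9-1. Poly(A)-selected libraries hold reads of the precursor transcript over such genes, not of the mature microRNA. The Mir9-1 hairpin, at chr3:88215598-88215686 (plus strand) in RefSeq's GRCm38.p6, went from 6 to 83 reads (3.57, 2.39 to 5.06), the largest increase among the members. miR-9 is a microRNA of neural progenitors. Its mature arms are shown because the row with the largest increase takes its name from them, and capitals mark the seed (bases 2 to 8).
mmu-miR-9-5p: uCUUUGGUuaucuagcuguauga
mmu-miR-9-3p: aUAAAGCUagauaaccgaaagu

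The arms have different seeds. Other small RNA rows, named after their values were seen, moved less. Snord49b, a guide of RNA methylation, went from 730 to 483 reads (-0.81, -0.98 to -0.65), Snord22 from 1738 to 1297 (-0.64, -0.75 to -0.54) and Mir101a from 118 to 75 (-0.87, -1.31 to -0.44). Mir453 had 293 and 526 reads (0.63, 0.42 to 0.84). The small RNA median was -0.22, near that of the lncRNAs.

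Lowered mRNAs came from longer genes than raised mRNAs. The property available was the genomic span of the gene, from RefSeq's GRCm38.p6 annotation, which includes introns and is not transcript length. It was known for 41 of the 46 lowered mRNAs, 99 of the 101 raised and 11886 of the remaining 12382. The median span was 33.0 kb for the lowered, 13.7 kb for the raised and 24.2 kb for the remaining. With 1.5-fold as the threshold the medians were 37.8 kb over 469 genes, 15.8 kb over 604 and 24.1 kb over 10953. A span over 20 kb was found in 75.6% of the lowered, 35.4% of the raised and 56.1% of the remaining mRNAs. Rb1 spans 133.1 kb, Atrx 131.8 kb and Micu3 81.3 kb, whereas Pim2 spans 5.13 kb and Chac1 3.08 kb. Mid1 (305.6 kb) and Gfra1 (220.4 kb) are exceptions among the raised.

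Across all mRNAs with a known span the ratio was compared in 10 equal groups of genes by span. The median log2 ratio went from 0.21 in the shortest group (up to 4.53 kb) through 0.12 in the fifth to 0.01 in the ninth (69.6 to 120.4 kb), and was 0.08 in the longest. Centred on the mRNA median, the last 5 groups lie below 0. The share at least 1.5-fold lower was 2.16% in the shortest, 6.07% in the ninth and 4.74% in the longest group. The share at least 1.5-fold higher was 8.89%, 3.08% and 5.90% in the same groups, so the longest genes lay between the shortest and the ninth group in both shares. Spearman's rho across 12026 genes, which share both libraries, was -0.19. With genes split into 3 equal groups by reads, it was -0.08 in the group with the fewest, -0.26 in the middle and -0.28 in the group with the most. At 1.5-fold the median spans in that last group were 46.8 kb for 89 lowered and 13.6 kb for 45 raised genes. At 2-fold the middle group ran the other way, with 45.01 kb for 8 lowered and 64.4 kb for 8 raised genes.

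**Figure D4:**
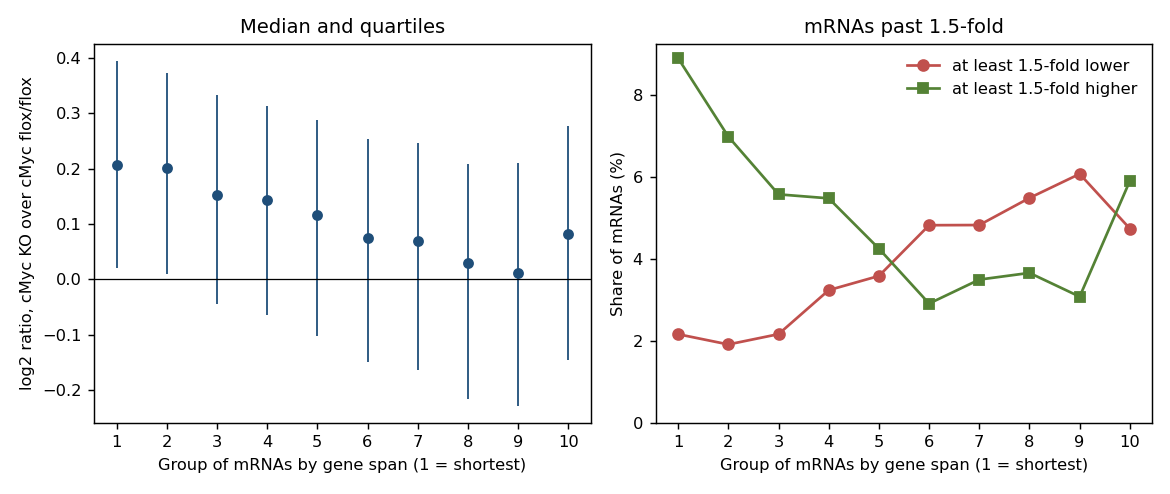
Log2 ratio (cMyc KO over cMyc flox/flox) of mRNAs in 10 equal groups by gene span: medians with quartiles as bars (left) and shares (%) at least 1.5-fold lower or higher (right). The median goes from 0.21 in the shortest group to 0.01 in the ninth, and the longest turns up to 0.08.

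Read depth and the number of RefSeq transcripts per gene also differed between the sets. Lowered mRNAs had a median of 247.0 reads over both libraries, raised mRNAs 109.0 and the remaining 1033. In the lowest of the 3 groups by reads stood 31 of the 46 lowered and 92 of the 101 raised. Mean transcripts per gene were 1.46 in the lowered, 1.77 in the raised and 2.18 in the remaining mRNAs at 2-fold. At 1.5-fold they were 2.25, 2.02 and 2.18, so that difference did not keep its order. The part of depth in the span difference was not tested beyond the 3 groups above.

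Zinc finger genes formed a group of lower mRNAs that are not long; they were chosen after the values were seen. The 296 member mRNAs named Zfp with a number mostly encode DNA-binding proteins, many with KRAB domains that recruit silencing. Their median ratio was -0.12 and 14.9% were at least 1.5-fold lower, against 3.82% of the other mRNAs. Their median span was 17.3 kb against 24.4 kb for other mRNAs. Among genes of 10 to 30 kb the 185 zinc finger genes had a median of -0.22 and the 3867 others 0.13. Members past 2-fold were Zfp182 (-1.22, -1.64 to -0.81), Zfp595 (-1.20, -1.59 to -0.83) and Zfp932 (-1.18, -1.48 to -0.89). These 3 lower genes are 1.01% of the group and none was 2-fold higher, against 0.352% and 0.826% of the other mRNAs. Counts so small are only described. Such genes have close copies in the genome that can share reads.

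Chromosome of origin, looked at after the values were seen, set 1 autosome apart. The 1035 mRNAs of chromosome 11 had a median log2 ratio of 0.25, and the 10991 of all other chromosomes 0.10. The next highest medians were 0.16, on chromosomes 7 and 19. Chromosome 11 was highest within each of 3 equal groups of genes by span, at 0.31 for the shortest, 0.25 for the middle and 0.18 for the longest, against 0.17, 0.09 and 0.03 elsewhere. Of its mRNAs 71.9% lay above the median of the others. Its 2-fold counts were 13 higher and 1 lower, where 0.806% and 0.367% of all mRNAs were. The count of raised mRNAs did not set it apart, as chromosome 2 had 12 of 944 and chromosome 13 had 8 of 453. Several list members named for high ratios lie on it, among them Atp5g1, Mrpl55 (0.63, 0.51 to 0.76), Mrps24 (0.60, 0.51 to 0.70), Grn (0.61, 0.53 to 0.69), Psmd3 (0.50, 0.46 to 0.55), Mnt and Mlx. The Y chromosome had 2 members, Uty and Eif2s3y (165 and 115 reads; -0.74, -1.10 to -0.39), both lower. The number of copies of a chromosome in these cultures was not tested.

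**Figure D5:**
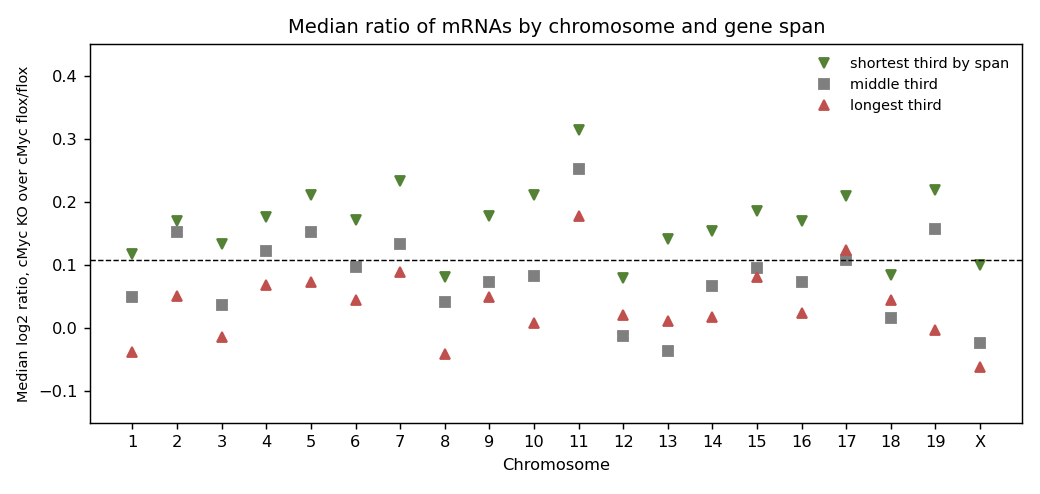
Median log2 ratio (cMyc KO over cMyc flox/flox) of member mRNAs by chromosome, in 3 equal groups by gene span; the dashed line is the median of all mRNAs and the Y chromosome is left out. All 3 points of chromosome 11 lie above the dashed line, at 0.31, 0.25 and 0.18.

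The members were also measured in stem cells without Dicer, the enzyme that cuts microRNA precursors: 3 Dcr KO libraries against 2 Dcr WT libraries, tested with limma on log2(value + 1). There, 14.9% of all 4840 lncRNA rows tested were called lower and 9.3% higher at an adjusted p under 0.05, and 22.7% of 17140 mRNA rows lower and 20.5% higher. Of the 764 lncRNA members, 220 (28.8%) were called lower and 84 (10.99%) higher without Dicer, and 11 were not tested there. Leaving out Dcr KO 1, 3 or 4 cut the 84 to 48, 40 or 47. The cMyc ratio had a median of -0.25 in the 220, -0.27 in the 84 and -0.20 in the 449 that were not called. At least 1.5-fold lower without cMyc were 52 of the 220, 21 of the 84 and 95 of the 449. The lncRNA medians were thus below 0 in the cMyc KO library in each of the 3 sets. For the 11 lncRNAs not tested without Dicer the median cMyc ratio was 0.28.

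Seen from the other side, 12 of the 38 lncRNAs lowered 2-fold without cMyc were called lower without Dicer (31.6%) and 2 higher (5.26%), where 28.8% and 10.99% of all lncRNA members were. The overlap of 12 is 5.45% of the 220. Myc itself was called lower in Dcr KO (limma log2 fold change -3.44, SE 0.39, adjusted p 0.000289). Gm3952 was called lower in both comparisons, with a limma change of -0.70 (SE 0.19, adjusted p 0.0205). Mid1, the Guttman lincRNA on chromosome X and AF026565, all higher without cMyc, were low together in Dcr KO 3. Their values there were 586.6, 0.764 and 0. In Dcr KO 1 they were 24357.4, 136.6 and 75.4, and in Dcr KO 4 15580.4, 174.5 and 55.9. Whether these rows belong to a single locus was not tested. Spearman's rho between the ratios of both comparisons, which share no library, was -0.05 across 753 lncRNAs, too weak to read.

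The mRNAs were counted in the same way. Of the 101 mRNAs raised 2-fold without cMyc, 42 (41.6%) were called lower without Dicer and 19 (18.8%) higher, where 24.4% and 22.8% of all mRNA members were. Of the 46 lowered, 6 were called lower and 14 (30.4%) higher. T was higher without cMyc and lower without Dicer (limma log2 fold change -5.26, SE 0.82, adjusted p 0.00159), and the Mir9-1 row was lower there as well (-2.05, SE 0.32, adjusted p 0.00161). Rb1 (0.79, SE 0.14, adjusted p 0.00355), Micu3 (1.00, SE 0.20, adjusted p 0.00583) and Atrx (1.03, SE 0.27, adjusted p 0.0196) were lower without cMyc and called higher by limma without Dicer. Spearman's rho between the comparisons was -0.14 across 12524 mRNAs, a weak relation.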

How the data were processed

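RNA libraries were 1 cMyc flox/flox and 1 cMyc KO, with 2 Dcr WT and 3 Dcr KO libraries used beside them. Per the submitters' processing notes TopHat, Bowtie and DESeq were used with the mm9 build, and no label names the program that counted reads. The deposited values are a signal, reads per row divided by 1 size factor per library; whole reads were recovered from the value of 1 read (1.05 for cMyc flox/flox, 0.906 for cMyc KO), and 100% of values came out whole within 0.01 read. Recovered totals were 24660365 to 278006158 per library. Ratios used the deposited scaling, with an exact conditional binomial (Clopper-Pearson) interval at 95%. No member was at 0 in either library. RefSeq small RNA genes were set apart from lncRNAs. Symbols were found for 16836 of 17123 RefSeq rows.

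Named genes were Myc and its network, the 10 mRNAs and 5 lncRNAs in each direction with the interval bound farthest from no change, up to 4 genes per list with the largest ratio whose interval excludes 0, and 5 pluripotency genes; others were named after their values were seen, and 1 gene that the rule names is not reported here. Members and lists were chosen with earlier results of these data known. The Dcr table was tested with limma 3.58.1 (log2(value + 1), values of at least 1 in 2 libraries, 42358 rows, Benjamini-Hochberg 0.05), with edgeR 4.0.16 and DESeq2 1.42.0 on recovered reads as alternatives. Nothing in the labels says that the Dcr WT libraries came from separate cultures, so those p-values may measure technical spread. Scripts were tested on simulated data. Chromatin libraries were not used here.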

Additional observations from a re-analysis of the deposited data

How the results depend on the processing

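With 1 library per genotype no count has a replicate check, and the 2-fold counts depend on nearly every choice. Scaling by all recovered reads gave 126 lower and 55 higher mRNAs and 70 lower and 1 higher lncRNAs. Reads outside ribosomal RNA, or setting the mRNA median to 0, gave 100, 62, 60 and 1, and TMM factors 97, 64, 58 and 1 in the same order. The upper quartile gave 76 lower mRNAs and 1 higher lncRNA. A minimum of 20 reads gave 100, 234, 121 and 25, a minimum of 200 reads 25, 24, 7 and 1, and intervals wholly past 2-fold 7, 8, 4 and 1. At 1.5-fold the counts were 511, 628, 169 and 36, and on log2(value + 10) they were 26, 41, 18 and 1. On log2(value + 1) the higher lncRNAs went to 1. In every setting run, lower lncRNAs outnumbered higher ones, while the order of lower and higher mRNAs changed with the setting. Counting small RNA rows as lncRNAs, a choice made after seeing the data, gave 39 and 4.

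The mRNA median went to 0.00315 on reads outside ribosomal RNA, 0.00803 with TMM and 0 when centred, and the lncRNA median to -0.33, -0.33 and -0.34. Median span of lowered mRNAs in the group with the most reads was 46.6 kb (6 genes); for raised mRNAs it was 64.4 kb in the middle group (8 genes) and 5.13 kb in the highest (1 gene), so at 2-fold the span order was not kept in the middle group. Other span settings stayed within the 95% order-statistic interval of the main medians. Of 38 named genes past 2-fold, 32 remained past it when centred. The shift of -0.107 is too small to change the sign of a gene past 2-fold. Of all 192 named genes, 1 changed sign when centred. For 6 of 39 lists the median changed sign when centred.

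Leaving out 1 Dcr library gave 40 to 98 lncRNA members called higher and 158 to 237 called lower, and edgeR on recovered reads gave 77 and 225; DESeq2, another pseudocount or no filter also kept both counts within 1.5-fold. No paired analysis was possible because the Dcr groups share 1 replicate number and the cMyc groups have 1 library each.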
